A study of Mus musculus with 6 samples.

Results

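Wnt proteins are secreted, lipid-modified signals that bind Frizzled receptors on nearby cells. In the canonical branch of the pathway, binding protects beta-catenin from destruction, and beta-catenin then acts with TCF and LEF factors on target genes. In the central nervous system Wnt signals are known for their part in blood vessel growth and the blood-brain barrier, and for timing oligodendrocyte maturation. The 10 genes described here cover 3 roles: the ligands Wnt6, Wnt5a, Wnt4 and Wnt7b, the secreted modulators Sfrp1, Frzb and Dkk3, and the target genes Axin2, Lef1 and Nkd1. They were chosen by name, with earlier results of these data known, from 35850 genes in a table of transcript abundances in mouse optic nerve. Each matched 1 Ensembl gene. All 10 were among the 14364 genes tested, for which 3 or more of the 6 libraries had to reach 1 TPM. TPM, a share of all transcripts in a library, divides the reads of a transcript by its length, so levels can be compared between genes.

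The series asked how an obesogenic diet affects gene expression in the optic nerve of mice that form optic glioma. Obesogenic feed was based on AIN-76A, contained sucrose and drew 58% of energy from fat, whereas control feed was PicoLab 5053. The series title calls the exposure maternal. All mice were 6 weeks old and carried GFAP-Cre, a floxed Nf1 allele and an Nf1 allele with the R681X mutation, so both diets share the glioma genotype and no animal without it is compared. The GFAP promoter drives Cre in glial cells, while the RNA came from whole nerve. Each diet had 3 libraries of poly(A) RNA. The labels do not say that they came from separate animals or litters, so a p-value reflects only how much these samples vary, and that variation may be technical. Sequencing depth cannot be read from TPM, and 13824 to 14514 genes per library were at 1 TPM or more.

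Some libraries stood apart, and this bears on several of the 10 genes. In obesogenic library 2, 20.6% of all TPM belonged to immunoglobulin genes, against at most 0.0439% in any other library, which lowers the other values of that library. The same library stood apart in microglia markers, 8 genes that summed to 3549 TPM in it, against 730 to 784 TPM in the other obesogenic libraries and 764 to 1153 TPM in control libraries. The complement gene C1qa, 1 of the 8, had 145, 1034 and 133 TPM in obesogenic libraries 1, 2 and 3, against 195, 232 and 141 TPM in control libraries. P2ry12, another of the 8, did not stand apart. It had 55.9, 59.1 and 49.2 TPM in obesogenic libraries, against 94.0, 56.1 and 54.8 TPM in control libraries. Markers of neurons were high in obesogenic libraries 1 and 3, with summed levels of 410.3, 197 and 1056 TPM in obesogenic libraries 1, 2 and 3, against 70.2 to 143 TPM in control libraries. The nerve's own glial markers were present throughout, as 10 oligodendrocyte markers summed to 27044 to 55294 TPM in obesogenic and 61998 to 69971 TPM in control libraries. Of 17 markers of meningeal fibroblasts and arachnoid, the cells of the sheath around the nerve, 16 had a lower obesogenic log2 level. Of these, 13 were lower without overlap between diets. Of all genes tested, 42.3% had a lower obesogenic log2 level and 7.45% were lower without overlap. The meningeal markers summed to 12325 to 17147 TPM in obesogenic and 43185 to 53436 TPM in control libraries, and none was listed at 0 in all libraries. Ptgds, an abundant prostaglandin synthase gene, held 93.0% to 96.2% of that sum, so the sum is close to the level of a single gene. Whether the Ptgds transcripts came from sheath cells alone was not tested. All 12 endothelial markers had a lower obesogenic log2 level, with sums of 546 to 680 TPM in obesogenic and 949 to 1359 TPM in control libraries. In whole tissue, fewer cells of a type and less RNA per cell cannot be told apart.

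For 6 of the 10 genes a set of promoter sequences from RefSeq (build GRCm38.p6) held a window. These were Wnt6, Wnt4, Frzb, Lef1, Nkd1 and Axin2. A window runs from 250 bases before to 50 bases after a listed start site. That site need not be the gene's first base in the GENCODE M21 annotation. There Frzb, on the minus strand, begins at 80447625, inside its window, and Nkd1 begins at 88521354, before its window at 88527383. The last Lef1 window begins at 131156044, while the gene begins at 131110471. Of the 4 windows printed, 2 belong to the ligands with the largest differences between diets, 1 to the inhibitor that was higher, and 1 to Axin2, a standard reporter gene of the pathway. They were searched on both strands for CTTTG, the core recognised by TCF and LEF factors, and a match on either strand is in capitals.
Wnt6, chr1:74771642-74771941, plus strand: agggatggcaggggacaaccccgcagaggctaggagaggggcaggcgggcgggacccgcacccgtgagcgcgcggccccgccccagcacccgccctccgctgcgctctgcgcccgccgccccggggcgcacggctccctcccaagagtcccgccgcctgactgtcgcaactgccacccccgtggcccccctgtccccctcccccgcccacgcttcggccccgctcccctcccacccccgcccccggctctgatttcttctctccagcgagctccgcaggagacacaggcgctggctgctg
Wnt4, chr4:137277385-137277684, plus strand: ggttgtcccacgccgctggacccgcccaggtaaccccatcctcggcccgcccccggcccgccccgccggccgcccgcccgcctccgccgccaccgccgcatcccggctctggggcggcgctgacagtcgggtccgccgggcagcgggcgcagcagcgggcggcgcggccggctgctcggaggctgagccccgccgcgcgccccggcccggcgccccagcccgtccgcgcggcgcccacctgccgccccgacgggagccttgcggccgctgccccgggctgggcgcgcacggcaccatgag
Frzb, chr2:80447347-80447646, minus strand: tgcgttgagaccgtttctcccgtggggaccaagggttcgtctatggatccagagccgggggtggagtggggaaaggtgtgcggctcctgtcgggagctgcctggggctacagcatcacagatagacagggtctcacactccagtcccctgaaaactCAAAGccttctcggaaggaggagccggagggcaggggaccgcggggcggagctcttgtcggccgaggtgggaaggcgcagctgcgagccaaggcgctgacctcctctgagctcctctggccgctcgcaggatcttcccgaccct
Axin2, chr11:108920099-108920398, plus strand: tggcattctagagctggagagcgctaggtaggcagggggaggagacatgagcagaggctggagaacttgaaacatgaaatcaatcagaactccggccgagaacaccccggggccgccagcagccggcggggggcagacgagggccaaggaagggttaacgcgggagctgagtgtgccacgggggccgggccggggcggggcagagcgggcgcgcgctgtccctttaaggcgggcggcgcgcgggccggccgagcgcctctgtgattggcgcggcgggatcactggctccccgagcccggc
Of all 32851 promoter windows in the table, 53.9% held CTTTG, so a single match is common. The Frzb window held 1 match, which starts 94 bases before the start site of that window. The windows of Wnt6, Wnt4, Axin2 and Nkd1 held none. Each of the 4 windows of Lef1 held between 1 and 3. The longer form CTTTGAT, held by 3.73% of all windows and containing CTTTG, was in none of the members' windows. G and C bases made up 76.7% of the Wnt6 window and 84.3% of the Wnt4 window, compared with a median of 52.7% over all windows. A match is only a match of letters, and its absence from 300 bases does not bear on sites elsewhere.

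The ligands Wnt6 and Wnt4 measured far below the control level in every obesogenic library, while Wnt5a was slightly lower and Wnt7b was higher in 2 of 3 libraries. The test was made on log2(TPM + 1) by limma, a linear model fitted across all genes, for obesogenic minus control, with p adjusted over all genes tested by the Benjamini-Hochberg method. On this scale the fold change of low genes is understated. Of all genes tested, 0.00696% passed an adjusted p of 0.05; this was 1 gene, the gene model Gm9836, named after its values were seen. None of the 10 members passed, so the values below describe these libraries and no member is called changed. At an unadjusted p under 0.05, 4 of the 10 were lower (Wnt6, Wnt4, Sfrp1 and Dkk3), where 5.0% of all genes tested were. Frzb alone was higher at that level, where 5.97% of all genes were. In 6 of the 10 every obesogenic library was below every control library, which held for 7.45% of all genes. In 1 every obesogenic library was above, which held for 8.88%. The members were chosen with earlier results of these data known, so an excess over these shares is no evidence about them as a set. After rescaling without immunoglobulin genes, Wnt5a and Nkd1 overlapped, Wnt6, Wnt4, Sfrp1 and Dkk3 were still below, and Frzb was still above. The share of all genes without overlap was not computed on that scale, where the median log2 change of all genes was 0.17. The rescaled values are therefore a description only. Without rescaling, the members' median log2 change was -0.50 and that of all genes tested was 0.079.

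**Figure D1:**
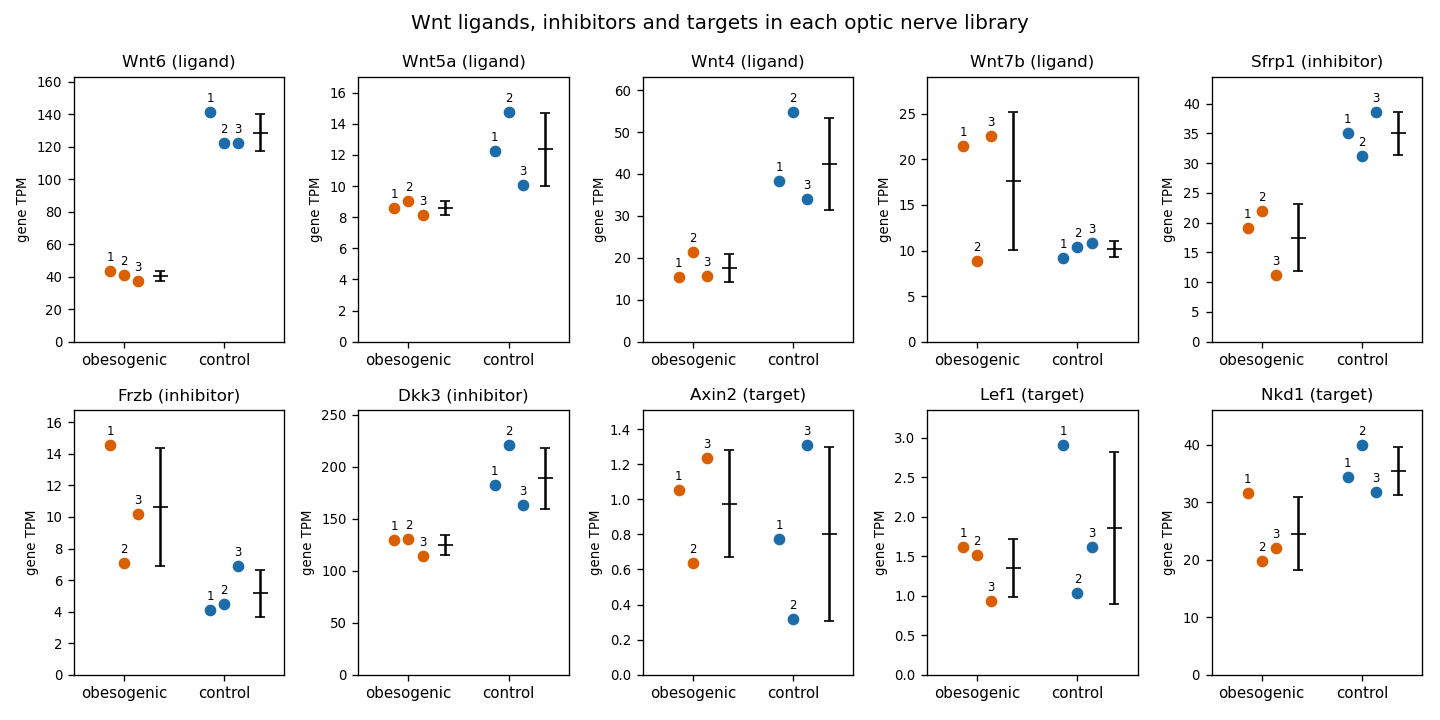
Gene TPM of each of the 10 Wnt genes in 3 obesogenic (orange) and 3 control (blue) libraries, with library numbers; black marks are means with SD, and each panel has its own scale from 0. Wnt6 lies at 37.3 to 43.3 TPM in obesogenic and 122 to 141 TPM in control libraries, and in Wnt7b obesogenic library 2 sits with the control libraries.

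Wnt6 (ENSMUSG00000033227, chromosome 1), a ligand known for canonical signalling in developing epithelia, had 43.3, 41.1 and 37.3 TPM in obesogenic libraries 1, 2 and 3, against 141, 122 and 122 TPM in control libraries. The obesogenic libraries were close to one another and far below every control library. The mean was 40.6 ± 3.03 TPM in obesogenic and 129 ± 11.1 TPM in control libraries (SD, n = 3 each), a log2 change of -1.64 (SE 0.17, limma adjusted p = 0.0848). Without obesogenic library 2 it passed, with a log2 change of -1.65 (limma adjusted p = 0.0167). In that fit 1.25% of genes passed lower and 4.89% higher. With obesogenic library 2 as the only obesogenic library kept, an alternative chosen after seeing the data, the log2 change was -1.62. A single library has no spread of its own, so only the effect size is given for that fit. With each library other than obesogenic library 2 left out singly, Wnt6 did not pass, and its log2 change lay between -1.69 and -1.57. With array weights, which give less weight to libraries that fit poorly, 6 of the 10 members passed (Wnt6, Wnt4, Sfrp1 and Dkk3 lower, Frzb and Wnt7b higher), where 3.89% of all genes passed lower and 10.5% higher.

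Wnt6 was the most abundant of the 19 Wnt genes in every library. It made up 32.3%, 36.3% and 31.0% of summed ligand TPM in obesogenic libraries, against 55.5%, 43.8% and 49.6% in control libraries. The summed ligand level was 134, 113 and 120.3 TPM in obesogenic libraries, against 255, 279 and 246 TPM in control libraries. Both the sum and the share held by Wnt6 were lower in every obesogenic library.

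Both listed Wnt6 transcripts were lower, in similar proportion. The protein-coding Wnt6-201 measured 33.8, 34.8 and 25.0 TPM in obesogenic libraries, against 103, 97.3 and 91.0 TPM in control libraries (log2 change -1.62, limma adjusted p = 0.149 over all transcripts). Wnt6-202, a transcript with a retained intron, measured 9.46, 6.29 and 12.3 TPM in obesogenic and 38.3, 25.1 and 31.2 TPM in control libraries (log2 change -1.68, limma adjusted p = 0.201). The protein-coding form held 77.0% of the obesogenic and 75.5% of the control level. Over all transcripts tested 0.00565% passed, and none of the members' 13 tested transcripts did. Of the 13, 7 had an unadjusted p under 0.05, where 8.46% of all transcripts had. Among the 7 are the transcripts that hold the whole listed level of Wnt4, Sfrp1, Frzb and Dkk3. Their values are those of the genes, so the count largely repeats the one for genes.

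Wnt4 (ENSMUSG00000036856, chromosome 4), a ligand best known from kidney and reproductive tract development, had 15.5, 21.5 and 15.7 TPM in obesogenic libraries, against 38.2, 54.8 and 34.0 TPM in control libraries. The groups did not overlap. Its means were 17.6 ± 3.40 TPM in obesogenic and 42.4 ± 11.0 TPM in control libraries (SD, n = 3 each), and the log2 change was -1.21 (SE 0.26, limma adjusted p = 0.225). It too passed without obesogenic library 2 (log2 change -1.36, limma adjusted p = 0.0314).

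Wnt5a (ENSMUSG00000021994, chromosome 14), the main ligand of the branch of Wnt signalling that does not use beta-catenin, differed less. It had 8.60, 9.01 and 8.11 TPM in obesogenic libraries, against 12.2, 14.8 and 10.1 TPM in control libraries. The log2 change was -0.47 (SE 0.25, limma adjusted p = 0.553). Its transcripts were uneven: Wnt5a-202, which codes for protein, measured 7.56, 6.22 and 8.11 TPM in obesogenic and 12.2, 10.7 and 3.67 TPM in control libraries. In control library 3 more of the gene's level came from Wnt5a-204, a transcript not annotated as coding, at 5.72 TPM. The gene-level gap therefore does not hold for Wnt5a-202 alone, whose groups overlapped through control library 3 (log2 change -0.12). Wnt5a-201, another coding transcript in GENCODE M21, was not analysed here, so the coding level of the gene is only partly covered.

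Wnt7b (ENSMUSG00000022382, chromosome 15), a ligand that neural cells send to brain endothelium, was split within the obesogenic group. Obesogenic libraries 1 and 3 had 21.4 and 22.6 TPM and obesogenic library 2 had 8.88 TPM, against 9.16, 10.3 and 10.9 TPM in control libraries. The log2 change was 0.64 (SE 0.37, limma adjusted p = 0.582). Without obesogenic library 2 it was 1.05 and passed (limma adjusted p = 0.0400). With obesogenic library 2 alone it was -0.17. Obesogenic libraries 1 and 3 are also the ones with the highest neuron markers. Their 10 hypothalamic neuropeptide genes summed to 8032 and 6838 TPM, against 1342 TPM in obesogenic library 2 and 416 to 2211 TPM in control libraries. Most of that sum was Avp, with 6257, 933 and 4584 TPM in obesogenic libraries 1, 2 and 3. It had 619, 351 and 2038 TPM in control libraries 1, 2 and 3, so it overlapped between diets. Of the 9 neuropeptide genes tested, 6 were higher in every obesogenic library than in every control library, which held for 8.88% of all genes. Among these, Npy had 312, 83.1 and 430 TPM in obesogenic libraries, against 2.77, 1.73 and 9.97 TPM in control libraries. The part of neurons in the Wnt7b level was not tested. After rescaling without immunoglobulin genes, obesogenic library 2 had 13.4 TPM and control libraries had 11.4 to 13.5 TPM. Of its transcripts, Wnt7b-202 measured 8.42, 6.49 and 10.7 TPM in obesogenic and 5.46, 3.26 and 4.96 TPM in control libraries, without overlap (limma adjusted p = 0.590), while Wnt7b-204 was at 11.7, 2.39 and 10.7 TPM in obesogenic and 3.70, 6.82 and 5.90 TPM in control libraries. The low value of obesogenic library 2 thus lay in Wnt7b-204.

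**Figure D2:**
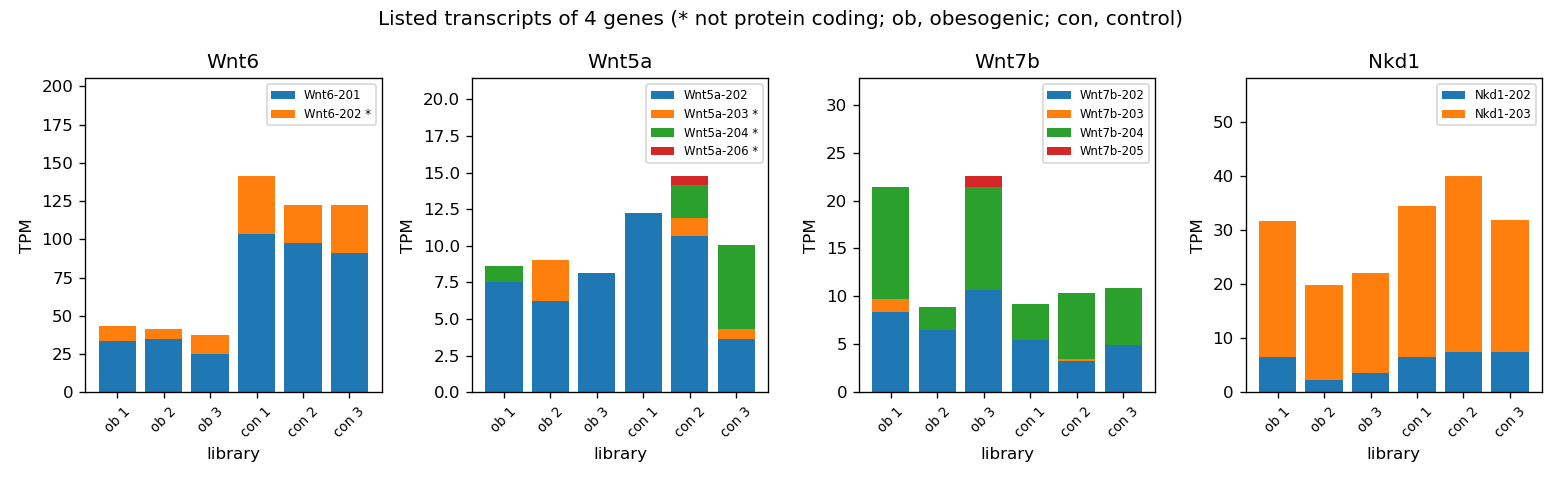
TPM of the listed transcripts of Wnt6, Wnt5a, Wnt7b and Nkd1 in each library, stacked, with obesogenic (ob) left of control (con) libraries. Both Wnt6 transcripts are lower in obesogenic libraries, the Wnt5a mixture differs in control library 3, and Wnt7b-204 is high in obesogenic libraries 1 and 3.

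The secreted modulators went in different directions: Sfrp1 and Dkk3 were lower in every obesogenic library, and Frzb was higher in every one. Sfrp1 (ENSMUSG00000031548, chromosome 8) and Frzb (ENSMUSG00000027004, chromosome 2) belong to the same family, whose proteins resemble the ligand-binding part of Frizzled receptors and bind Wnt proteins outside the cell. Dkk3 (ENSMUSG00000030772, chromosome 7) is a divergent member of the Dickkopf family, and its effect on Wnt signalling is less settled than that of its relatives.

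Sfrp1 had 19.2, 22.0 and 11.2 TPM in obesogenic libraries, against 35.1, 31.3 and 38.6 TPM in control libraries. The groups did not overlap, and obesogenic library 3 was lowest. The log2 change was -1.01 (SE 0.28, limma adjusted p = 0.302). It passed without obesogenic library 2 (log2 change -1.19, limma adjusted p = 0.0487).

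Frzb had 14.6, 7.11 and 10.2 TPM in obesogenic libraries, against 4.13, 4.49 and 6.87 TPM in control libraries. The lowest obesogenic library lay just above the highest control library. The log2 change was 0.89 (SE 0.35, limma adjusted p = 0.431), and it was 0.66 without obesogenic library 1. Within a library, the ratio of Frzb to Sfrp1 was 0.761, 0.323 and 0.911 in obesogenic libraries, against 0.118, 0.144 and 0.178 in control libraries. Since each gene alone was already without overlap, in opposite directions, the ratio could not overlap; neither gene passed, and the ratio is given as a description.

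Dkk3 was the most abundant of the 10 genes under both diets. It had 129.5, 131 and 114 TPM in obesogenic libraries, against 182, 221 and 163 TPM in control libraries. The groups did not overlap, with a log2 change of -0.59 (SE 0.18, limma adjusted p = 0.344). Its level relative to the Wnt5a gene sum was nearly fixed, though Wnt5a-202 alone was uneven in control libraries (12.2, 10.7 and 3.67 TPM). Wnt5a and Dkk3 were also each other's closest gene in these libraries, and a near-constant ratio restates that. The ratio of Wnt5a to Dkk3 was 0.0664, 0.0688 and 0.0711 in obesogenic libraries and 0.0671, 0.0667 and 0.0617 in control libraries. By contrast the ratio of Wnt6 to Dkk3 was 0.334, 0.314 and 0.327 in obesogenic libraries, against 0.776, 0.553 and 0.749 in control libraries, so Wnt6 was lower by more than Dkk3 in every obesogenic library.

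Of the target genes, Axin2 and Lef1 overlapped between diets and Nkd1 was slightly lower. Axin2 (ENSMUSG00000000142, chromosome 11), a scaffold of the complex that destroys beta-catenin and a feedback target of it, was near the limit of the test, with 1.05, 0.637 and 1.24 TPM in obesogenic libraries, against 0.774, 0.318 and 1.31 TPM in control libraries. The groups overlapped (log2 change 0.16, SE 0.36, limma adjusted p = 0.910). Lef1 (ENSMUSG00000027985, chromosome 3), a DNA-binding partner of beta-catenin and itself a target, had 1.61, 1.52 and 0.930 TPM in obesogenic libraries, against 2.91, 1.04 and 1.62 TPM in control libraries, also with overlap (log2 change -0.24, SE 0.37, limma adjusted p = 0.863). These sums hold only the transcripts that were listed. The GENCODE M21 annotation gives 7 transcripts for Axin2, of which 6 were analysed here, and 8 for Lef1, of which 6 were. Axin2-201, Lef1-201 and Lef1-202, all protein coding, were not analysed here. None of the 6 listed Axin2 transcripts reached the filter, and 83.9% of the obesogenic and 77.5% of the control Lef1 level came from Lef1-206, a transcript with a retained intron. The gene values of Axin2 and Lef1 thus leave out these coding transcripts.

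Nkd1 (ENSMUSG00000031661, chromosome 8), an inhibitor that binds Dishevelled and is induced by the pathway, was well detected. It had 31.7, 19.8 and 22.0 TPM in obesogenic libraries, against 34.5, 40.0 and 31.8 TPM in control libraries. Obesogenic libraries 2 and 3 were lowest, and obesogenic library 1 lay just under the lowest control library. The log2 change was -0.54 (SE 0.24, limma adjusted p = 0.472). Its transcripts Nkd1-203 and Nkd1-202 had log2 changes of -0.46 and -0.75. Wnt5a, Wnt7b and Nkd1 also each have 1 coding transcript in GENCODE M21 that was not analysed here.

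**Figure D3:**
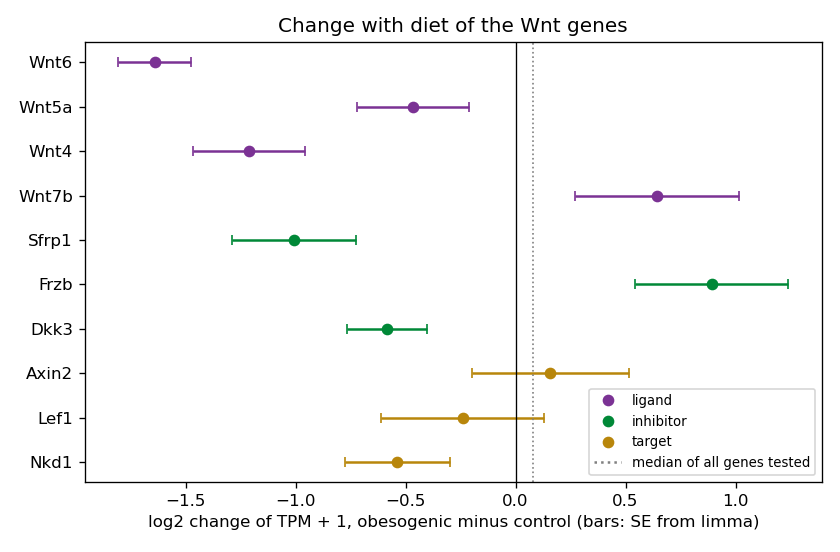
Log2 change of TPM + 1, obesogenic minus control, for the 10 genes, coloured by role, with bars for the SE from limma; the dotted line is the median of all genes tested, 0.079. Wnt6 is farthest from it at -1.64, Frzb and Wnt7b lie on the higher side, and no gene passed an adjusted p of 0.05.

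By level, Dkk3 and Wnt6 ranked first and second under both diets, and their ranges did not overlap with each other or with the gene below. In obesogenic libraries Nkd1, Wnt7b, Wnt4, Sfrp1, Frzb and Wnt5a followed with means of 24.5, 17.6, 17.6, 17.5, 10.6 and 8.57 TPM, and each neighbouring pair in that order overlapped. In control libraries Wnt4, Nkd1 and Sfrp1 followed with means of 42.4, 35.4 and 35.0 TPM and overlapped. Wnt5a at 12.4 TPM and Wnt7b at 10.1 TPM overlapped each other but not Sfrp1 above or Frzb, at 5.16 TPM, below. Lef1 and Axin2 came last under both diets, with ranges that overlapped each other. Frzb thus lay apart from Wnt5a and Wnt7b in control libraries, whereas in obesogenic libraries its range overlapped theirs. These ranks rest on the listed transcripts alone. Coding transcripts of Axin2, Lef1, Wnt5a, Wnt7b and Nkd1 were not among them, so the places of these genes may be too low.

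The lower members can be set beside markers of the sheath and vessels, which were lower too, as were all 10 oligodendrocyte markers. The log2 ratio of each member (TPM + 1) to the summed TPM of a marker list was computed per library, for 10 members and 2 lists. With 3 libraries against 3, an exact two-sided permutation test cannot give a p below 0.1, and p adjusted over these 20 comparisons was 0.167 or more. For Wnt6 over the meningeal markers the ratio was -8.58, -8.19 and -8.81 in obesogenic libraries, against -8.24, -8.76 and -8.54 in control libraries. The difference was -0.014 (exact permutation p = 1), so Wnt6 and this sum, which is mostly Ptgds, were lower by about the same factor. With the median log2 level of the markers in place of the sum the difference for Wnt6 was -0.46 (exact permutation p = 0.2). Wnt4 and Sfrp1 over the meningeal sum also overlapped between diets, with differences of 0.42 and 0.62 (exact permutation p = 0.4 and 0.3), and with the median the difference for Wnt4 was -0.032.

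The other 7 members were higher relative to the meningeal sum in every obesogenic library, at an exact permutation p of 0.1 each. This also held for 89.6% of all genes tested, whose median difference was 1.71, because the sum itself was much lower in obesogenic libraries. The 7 of 10 are thus no result about the members, and 0.0139% of all genes were lower against this sum without overlap. The difference was 1.16 for Wnt5a, 1.04 for Dkk3 and 1.09 for Nkd1, and it was 2.27 for Wnt7b and 2.52 for Frzb. With the median of the markers as denominator, Dkk3, Axin2 and Nkd1 overlapped between diets. Relative to the endothelial sum, Wnt6 was lower in every obesogenic library (difference -0.70, exact permutation p = 0.1), and Wnt4 and Sfrp1 overlapped (-0.27 and -0.067). Of all genes tested, 0.355% were lower against the endothelial sum without overlap and 64.9% were higher, with a median difference of 1.02. The part of sheath or vessel cells in the levels of Wnt6, Wnt4 and Sfrp1 was not tested, since a marker level that moves with diet cannot be separated from diet in 6 libraries.

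**Figure D4:**
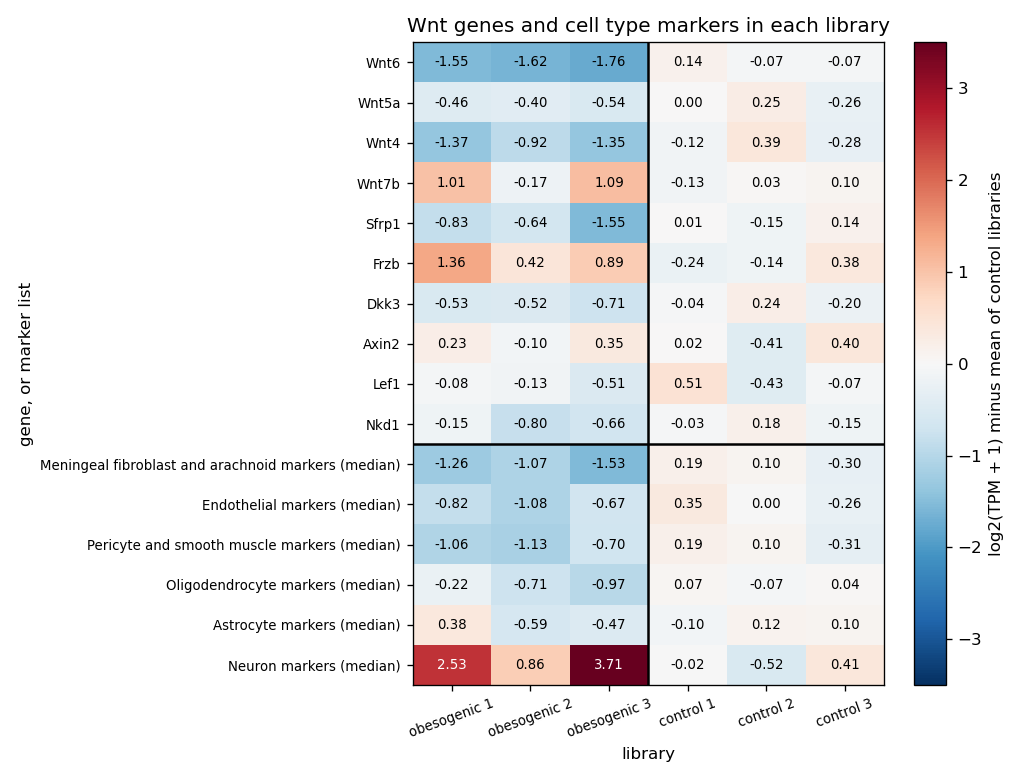
Log2(TPM + 1) of each Wnt gene in each library relative to the mean of the control libraries, and the median of such differences over each marker list. This median is not the one used as denominator in the ratios, which is taken over the log2 levels of the markers. In obesogenic libraries Wnt6 lies between -1.76 and -1.55 and the meningeal median between -1.53 and -1.07, while Wnt7b and the neuron median are highest in obesogenic libraries 1 and 3.

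The genes whose values over the 6 libraries lay closest to a member were found by the root mean square difference of centred log2 values, among 10316 genes with a mean of at least 5 TPM. This is a description of 6 libraries that share the diet contrast. Closest to Wnt6 were Lrrc32 (0.101), Ppic (0.117) and Slc6a12 (0.118). Lrrc32, which anchors latent TGF-beta at the cell surface, had 8.54, 8.86 and 8.97 TPM in obesogenic libraries, against 32.4, 24.9 and 26.5 TPM in control libraries. Closest to Wnt4 were Lsr, Mgat4b and Foxc2, and Foxc2, a forkhead transcription factor, had 40.3, 40.4 and 32.5 TPM in obesogenic and 87.7, 111 and 80.7 TPM in control libraries. Wnt5a and Dkk3 were each other's closest gene (0.0735). Lrrc4c, Castor2 and Abcd2 were closest to Wnt7b, and Smc2, Wsb1 and Zfp428 to Frzb. Lrrc4c, a synaptic adhesion gene, had 26.7, 9.98 and 29.3 TPM in obesogenic and 11.6, 12.2 and 12.7 TPM in control libraries, the same split within the obesogenic group as Wnt7b.

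The wider pathway was described with a list of 96 genes in 7 groups, of which 75 were tested and 0 passed. Without the 10 members it held 65 tested genes with a median log2 change of -0.42, and 45 were lower and 20 higher; of all genes tested 42.3% were lower. At an unadjusted p under 0.05, 16 of the 65 were lower and 3 higher, and the background shares are those given above. The lists, too, were chosen with earlier results of these data known, so an excess over those shares is no evidence about the pathway. Members named below are those of smallest unadjusted p in each group.

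Of 11 tested ligands, counting the Frizzled ligand gene Ndp, 9 were lower. Besides the members, Wnt11 had 13.1, 7.64 and 9.08 TPM in obesogenic libraries, against 14.4, 31.2 and 25.7 TPM in control libraries (limma adjusted p = 0.341). Wnt5b, a close relative of Wnt5a, had 6.51, 8.90 and 7.77 TPM in obesogenic and 16.0, 13.4 and 11.4 TPM in control libraries, a direction that turned when the gene's most abundant transcript was used instead (log2 change 0.61, limma adjusted p = 0.873). Wnt16 was at most 3.20 TPM in any library. Wls, the carrier that takes Wnt proteins to the cell surface, had 106, 77.1 and 70.8 TPM in obesogenic libraries, against 163, 139 and 118.5 TPM in control libraries (limma adjusted p = 0.338). Porcn, the enzyme that adds the lipid, overlapped between diets (log2 change -0.34).

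Among receptors 13 of 18 were lower, with a median log2 change of -0.51. Fzd2, a Frizzled receptor, had 12.9, 11.1 and 12.9 TPM in obesogenic libraries, against 34.9, 27.8 and 26.2 TPM in control libraries (log2 change -1.20, SE 0.22, limma adjusted p = 0.175), and it passed without obesogenic library 2 (limma adjusted p = 0.0323). Adgra2 and Reck, which let brain endothelium respond to Wnt7a and Wnt7b, were lower in every obesogenic library. Adgra2 had 0.758, 1.27 and 0.785 TPM in obesogenic and 3.69, 3.25 and 3.10 TPM in control libraries. Reck had 16.2, 11.4 and 12.4 TPM in obesogenic and 25.7, 29.2 and 19.4 TPM in control libraries. Endothelial markers were lower as well, with a median log2 change of -0.89.

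The R-spondins, which strengthen Wnt signals at the receptor, differed among themselves. Rspo3 had 20.1, 15.3 and 13.6 TPM in obesogenic libraries, against 32.7, 30.2 and 36.3 TPM in control libraries (log2 change -0.99, limma adjusted p = 0.237). Rspo1 had 4.97, 7.35 and 19.8 TPM in obesogenic libraries, against 1.48, 1.32 and 0.666 TPM in control libraries (log2 change 2.25, SE 0.50, limma adjusted p = 0.236). Both were without overlap, in opposite directions. Lgr6, a receptor for R-spondins, was at most 1.88 TPM in any library.

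Other inhibitors were as mixed as Sfrp1 and Frzb. Sfrp4 was lower, at 10.5, 6.80 and 6.76 TPM in obesogenic and 16.1, 18.5 and 11.7 TPM in control libraries. Sfrp5 had 18.8, 5.02 and 42.0 TPM in obesogenic libraries, against 5.12, 0.480 and 1.75 TPM in control libraries, with overlap; it passed without obesogenic library 2 (log2 change 3.32, limma adjusted p = 0.0365). Notum, an enzyme that removes the lipid from Wnt proteins and is also a target gene, had 2.83, 1.86 and 3.34 TPM in obesogenic libraries, against 8.69, 6.46 and 7.80 TPM in control libraries (log2 change -1.25, limma adjusted p = 0.267).

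Of 15 tested target genes 12 were lower, with a median of -0.44, and 0 passed. Apcdd1, a membrane-bound inhibitor induced by the pathway, had 31.5, 23.0 and 29.5 TPM in obesogenic libraries, against 50.8, 48.6 and 51.1 TPM in control libraries (log2 change -0.83, SE 0.19, limma adjusted p = 0.248; 0.0495 without obesogenic library 2). Dact1, a Dishevelled-binding protein gene, had 1.20, 1.40 and 1.86 TPM in obesogenic and 2.59, 2.79 and 3.30 TPM in control libraries. The relay inside the cell was centred near 0, with a median of -0.022 over 17 genes. In it Ctnnb1, which encodes beta-catenin, had 69.7, 79.7 and 59.2 TPM in obesogenic and 129, 82.6 and 110.1 TPM in control libraries. Gsk3b, the kinase that marks beta-catenin for destruction, had 16.5, 16.6 and 16.1 TPM in obesogenic and 9.52, 10.5 and 12.1 TPM in control libraries. Its relative Gsk3a was lower, at 2.78, 1.61 and 1.90 TPM in obesogenic and 3.14, 3.10 and 6.32 TPM in control libraries.

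**Figure D5:**
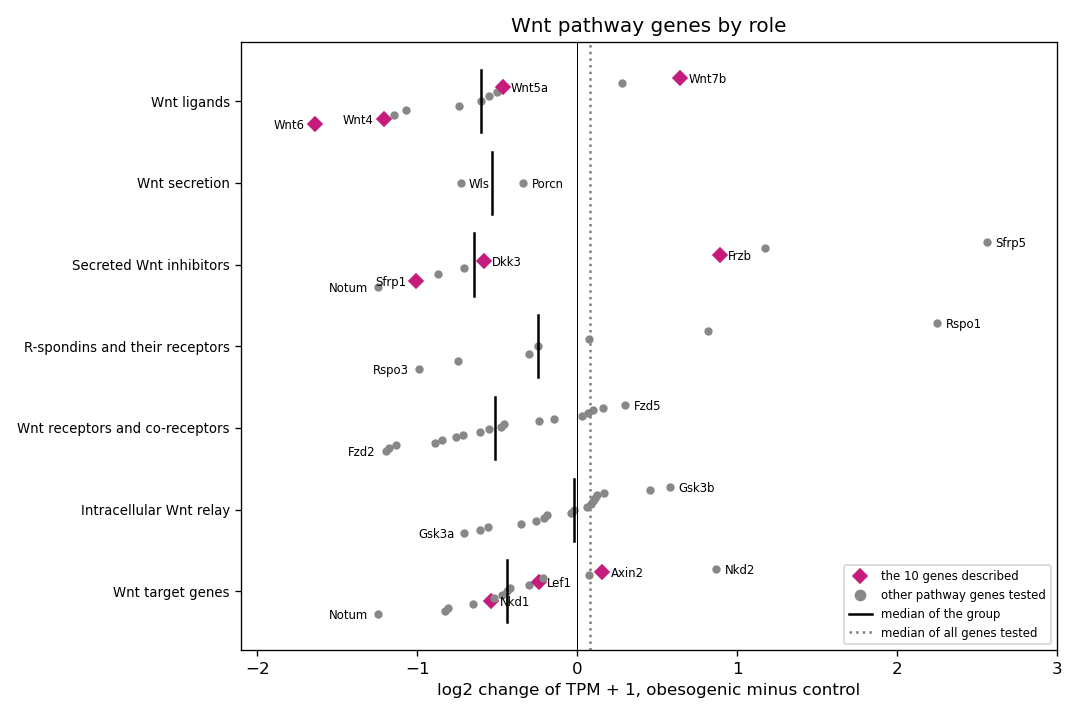
Log2 change, obesogenic minus control, of 75 tested Wnt pathway genes by role (diamonds are the 10 genes described, bars the median of each group; Notum, Znrf3 and Rnf43 stand in more than one group). Medians of ligands, inhibitors, receptors and targets lie between -0.65 and -0.44, and that of the intracellular relay lies at -0.022.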

How the data were processed

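The authors deposited one table of transcript TPM values for 6 optic nerve libraries, 3 per diet. Per the labels' protocols, a NucleoSpin RNA Plus XS kit served for extraction and a SMART-Seq mRNA kit for library preparation. Per the submitters' processing notes the tools included DRAGEN, STAR 2.7.9a, Subread and featureCounts 2.0.3. For the tool behind TPM and the genome build, nothing was given in the sources used here. Of the listed transcript identifiers, 98.9% are in GENCODE M21. Repeated lines of a transcript (415 transcripts) were counted once and TPM was summed per gene. The sum of TPM over the table was 788456 to 832193 per library.

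Genes reaching 1 TPM in 3 or more libraries entered limma 3.58.1 (R 4.3.3; lmFit and eBayes with trend) on the log2(TPM + 1) scale, two-sided, with Benjamini-Hochberg adjustment over all genes tested and a threshold of 0.05. Transcripts were tested alike. Member to marker ratios used exact permutation tests in scipy 1.17.1. Genes named are the 10 members, up to 3 other genes per pathway group by smallest unadjusted p, and the 3 genes nearest each member. The members and lists were chosen with earlier results of these data known. Library depth is unknown, so no counting error was computed. Alternatives covered pseudocount, filter, scaling, gene level, eBayes settings, array weights, the sample number as a block and leaving out libraries; TMM factors were unweighted trimmed means of log2 ratios, since TPM values are not counts.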

Additional observations from a re-analysis of the deposited data

How the results depend on the processing

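Of all genes, 1 passed. The count was 0 with no filter on low values (1795 at an unadjusted p under 0.05) and 2064 with array weights. It lay between 0 and 860 when each library was left out in turn (845 to 3356 unadjusted). An alternative chosen after seeing the data left out obesogenic libraries 1 and 3 together. That fit keeps 1 obesogenic library, assumed to vary like the control libraries, so only effect sizes are given for it. The members passing numbered 0, against 6 with array weights (Wnt6, Wnt4, Sfrp1, Dkk3, Frzb and Wnt7b) and 0 to 4 when a library was left out. The pathway genes passing numbered 0, and 24 of 75 had an unadjusted p under 0.05, where 11.0% of all genes had. With array weights 16 pathway genes passed (10 lower, 6 higher), where 3.89% of all genes passed lower and 10.5% higher. When a library was left out, 0 to 7 pathway genes passed. The 7 (5 lower, 2 higher) came without obesogenic library 2, where 1.25% of all genes passed lower and 4.89% higher. All calls of members on leaving out a library came without obesogenic library 2, and Wnt7b ranged from 0.42 to 1.05 over those fits. The cause was not tested. For transcripts the alternatives were a pseudocount of 0.1, no filter, the replicate block and leaving out each library in turn. No member transcript passed in any of them. Array weights and other scalings were not run for transcripts. Across all alternatives for genes the log2 change of Wnt6 ranged from -1.71 to -1.54 and that of Wnt4 from -1.38 to -0.92. Sfrp1 ranged from -1.19 to -0.64, Dkk3 from -0.69 to -0.47 and Frzb from 0.42 to 1.32. The sign turned for Wnt7b in obesogenic library 2 alone (-0.17), for Axin2 and Lef1 on leaving out a control library (ranges -0.048 to 0.29 and -0.46 to 0.013), for Wnt5b with the most abundant transcript (0.61), and in ratios that were near 0: Wnt6 over meningeal markers (-0.18 to 0.13 on leaving out a library), Wnt4 over their median (-0.032) and Sfrp1 over endothelial markers (-0.33 to 0.29). Quantile normalization moved the median of all genes to -0.035, where it was 0.079. With the replicate block, 1 gene and 0 members passed (4 members unadjusted). Same-numbered libraries deviated together with correlations of 0.0079, 0.177 and 0.132, and obesogenic library 1 correlated best with control library 3 (0.107), so the numbers were not taken to pair samples. Depth cannot be read from TPM, which limits what values near 1 TPM, such as Axin2 and Lef1, can show.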

Other observations

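The secreted regulators Wif1 and Rspo4, outside the tested genes, were listed at 0 in every control library and above 0 in every obesogenic library. Wif1, which encodes a Wnt-binding inhibitor, measured 0.955, 1.38 and 1.83 TPM in obesogenic libraries. Rspo4, an R-spondin, measured 0.220 to 0.792 TPM in obesogenic libraries. Both were chosen after their values were seen, lie near or under the filter of 1 TPM, and have no test. Ccnd1, a cyclin gene often used as a Wnt target, spread more within a diet than between diets, at 34.1, 50.6 and 8.38 TPM in obesogenic and 38.3, 57.7 and 16.7 TPM in control libraries; it was also chosen after its values were seen.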
